A study of Homo sapiens with 4 samples.

Results

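The cystatin genes were described in 4 lines of HCT116, an established human colon adenocarcinoma line, each measured on 1 Affymetrix array. The CST5 lines, clone 20 and clone 9, are stable transfectants that express cystatin D, the product of CST5, and each is a single clone. The controls were mock-transfected and un-transfected HCT116 cells. The sources used here do not give the construct, its promoter, the selection used or whether the mock line is a clone or a pool. One label field calls the samples clinical, whereas every other field gives HCT116, and they are treated here as that line. The members were 9 genes listed by Ensembl identifier and paired there with their symbols: CST5, CST1, CST2, CST3, CST4, CST6, CST7, CSTA and CSTB. All 9 had a row among the 24916 of the deposited table, and 7 of them were among the 15131 genes past a filter on dim values, which asked that the value exceed the 40th percentile of its array on 2 or more arrays. The groups hold 2 arrays each and no line has a replicate, so the p-values rest on differences between lines. The limma fit also draws each gene's spread towards that of the other tested genes, with 2 residual and 3.26 prior degrees of freedom. The p-values and intervals therefore do not measure a gene's own spread alone. A clone's own traits cannot be told apart from an effect of CST5.

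Cystatins are tight-binding, reversible inhibitors of papain-like cysteine proteases, chiefly the lysosomal cathepsins. The stefins, encoded by CSTA and CSTB, lack a signal peptide and act mainly inside the cell, while the other members studied here are made with a signal peptide and are secreted or sent to the endolysosomal system. Cystatin D is a secreted member known from saliva and tears, and in colon carcinoma cells CST5 is a known target gene of vitamin D.

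In the RefSeq gene table (GRCh38.p14), 6 of the 9 genes lie on chromosome 20. Among protein-coding genes there, CST3, CST4, CST1, CST2 and CST5 stand directly one after another, and CST7 lies apart. CST6, CSTA and CSTB are on other chromosomes. RefSeq promoter windows matched 2 members, CST5 and CST3, and the bases before their start sites are shown for that reason. These chromosomal genes stand at either end of that run. The CST5 row read higher in the clones, but it does not separate RNA of the chromosomal gene from RNA of the transgene. The capitals mark GATAAA, which resembles the TATA box and was picked after the sequences were read. Which promoter drives the transgene is not known here.

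CST5, chr20:23879749-23879848, minus strand: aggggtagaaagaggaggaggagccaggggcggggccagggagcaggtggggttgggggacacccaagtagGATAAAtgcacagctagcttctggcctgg
CST3, chr20:23637956-23638055, minus strand: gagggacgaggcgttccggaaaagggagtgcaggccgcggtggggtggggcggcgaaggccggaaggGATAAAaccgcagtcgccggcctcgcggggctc

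GATAAA begins at position -29 from the start site in CST5 and at -33 in CST3. In the same 100 bases it was found on the gene's strand in 1.64% of 35116 RefSeq promoters and on either strand in 2.92%. TATAAA, which shares 5 letters with it, was in neither sequence on either strand and in 3.51% of promoters on the gene's strand and 4.99% on either strand. The hexamer AGGTCA, found in binding elements of nuclear receptors, was also in neither on either strand, and 5.21% of promoters held it on either strand. A relative of it, AGTTCA, was likewise in neither, and 3.18% of promoters held it on either strand. Only these hexamers in the 100 bases were sought, so whether either gene holds a receptor's binding element was not tested. The share of G and C was 63.0% in CST5 and 72.0% in CST3, and the median over all promoters was 60%.

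The first question was whether the CST5 row (ENSG00000170367) shows the transgene. It read higher in both clones than in both controls. On the log2 scale the CST5 value was 7.32 in clone 20 and 6.48 in clone 9, against 4.09 in mock and 4.20 in un-transfected cells. The groups were far apart, and the lowest clone value exceeded the highest control value by 2.28. The mean was 6.90 ± 0.59 in the clones and 4.14 ± 0.08 in the controls (SD, n = 2 each). The log2 difference was 2.76 (SE 0.28, 95% interval 2.05 to 3.47), a 6.77-fold higher value in the clones. The row is therefore higher in the lines labelled as carrying CST5, and neither label of a clone or a control went against it. The table gives 1 row for the gene, so RNA of the transgene and RNA of the chromosomal gene cannot be told apart. Where the probes lie was not analysed here, so how much of the transgene's RNA the row reads is not known.

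Although large, the CST5 difference did not pass the adjusted threshold over all genes (limma, unadjusted p = 0.000136, adjusted p = 0.255). In that fit 0.0132% of the tested genes passed an adjusted p of 0.05, namely 2 genes, and no cystatin gene was among them. With 2 arrays against 2, an exact two-sided permutation test of a single gene cannot go below p = 0.333. By size, CST5 had the second highest mean difference of the 15131 genes and the second highest smallest clone-to-control difference. By unadjusted p it was number 6 over both directions. The spread between the clones was the wider one, with an SD of 0.59 against 0.08 between the controls.

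**Figure D1:**
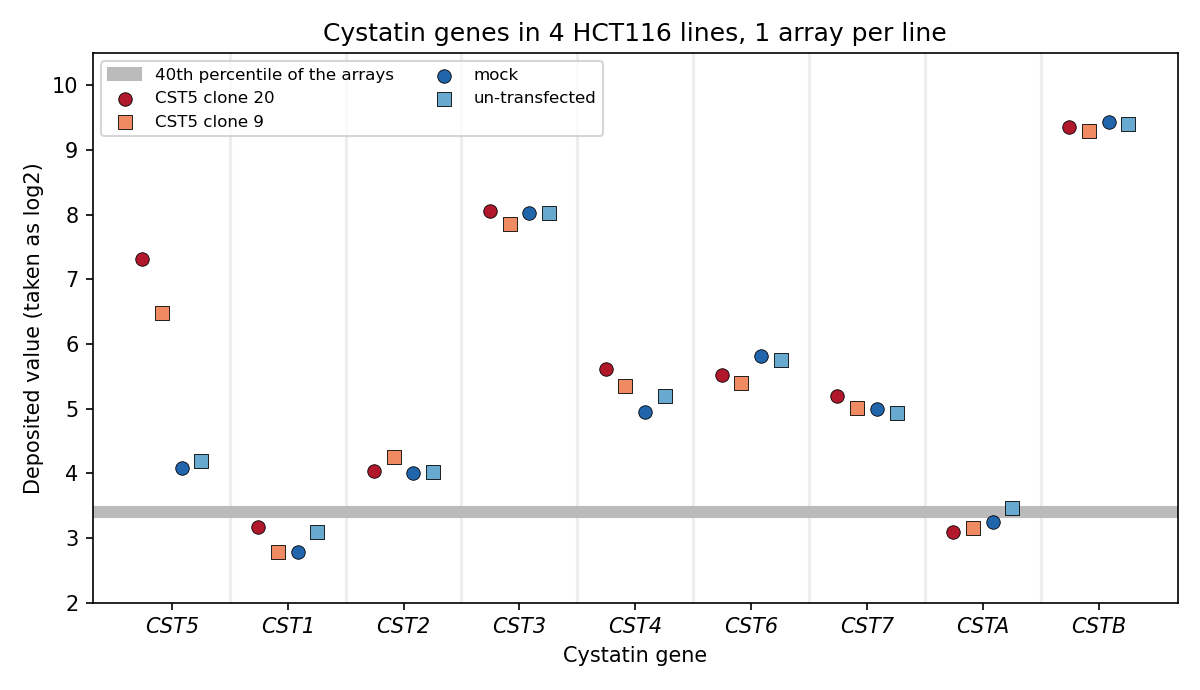
Deposited values, taken as log2, of the 9 cystatin genes on each array. Points stand for single arrays (clone 20, clone 9, mock and un-transfected cells) and the grey band spans the arrays' 40th percentiles, 3.33 to 3.48. CST5 is at 7.32 and 6.48 in the clones, against 4.09 and 4.20 in the controls, and the other genes keep within 0.66 over the 4 arrays. Heights of different genes come from different probes and are not comparable.

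Set against each control singly, CST5 was at least 2-fold higher in every case. In clone 20 it was 9.40-fold higher than in mock and 8.73-fold higher than in un-transfected cells. In clone 9 it was 5.25-fold higher than in mock and 4.87-fold higher than in un-transfected cells. Over all tested genes, the share at least 2-fold higher was 0.555% for clone 20 against mock, 0.529% for clone 20 against un-transfected cells, 0.648% for clone 9 against mock and 0.509% for clone 9 against un-transfected cells. CST5 had the highest difference of all tested genes against mock in either clone, and was second in clone 20 and number 4 in clone 9 against un-transfected cells. It was 1 of 15 genes, 0.0991% of those tested, that were at least 2-fold higher in all 4 of these differences. The 4 differences share arrays, so they are not separate tests.

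The clones also differed in their CST5 value. Clone 20 read 0.84 higher than clone 9 on the log2 scale, 1.79-fold, a difference between single arrays with no replicate check. That is under 2-fold, and 1.21% of the tested genes were 2-fold apart between the clones. By clone 20 minus clone 9, highest first, CST5 was number 164 of the 15131 tested genes. Mock read 0.11 below un-transfected cells on the log2 scale for CST5, 1.08-fold, and 0.390% of the tested genes were 2-fold apart between these controls. Both control values lay near the middle of their arrays, with 49.9% of genes below CST5 in mock and 50.9% in un-transfected cells. They exceeded the 40th percentiles of their arrays, 3.33 and 3.35. Signal over background was not known, so whether the controls express CST5 was not settled, and the fold can understate the change.

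**Figure D2:**
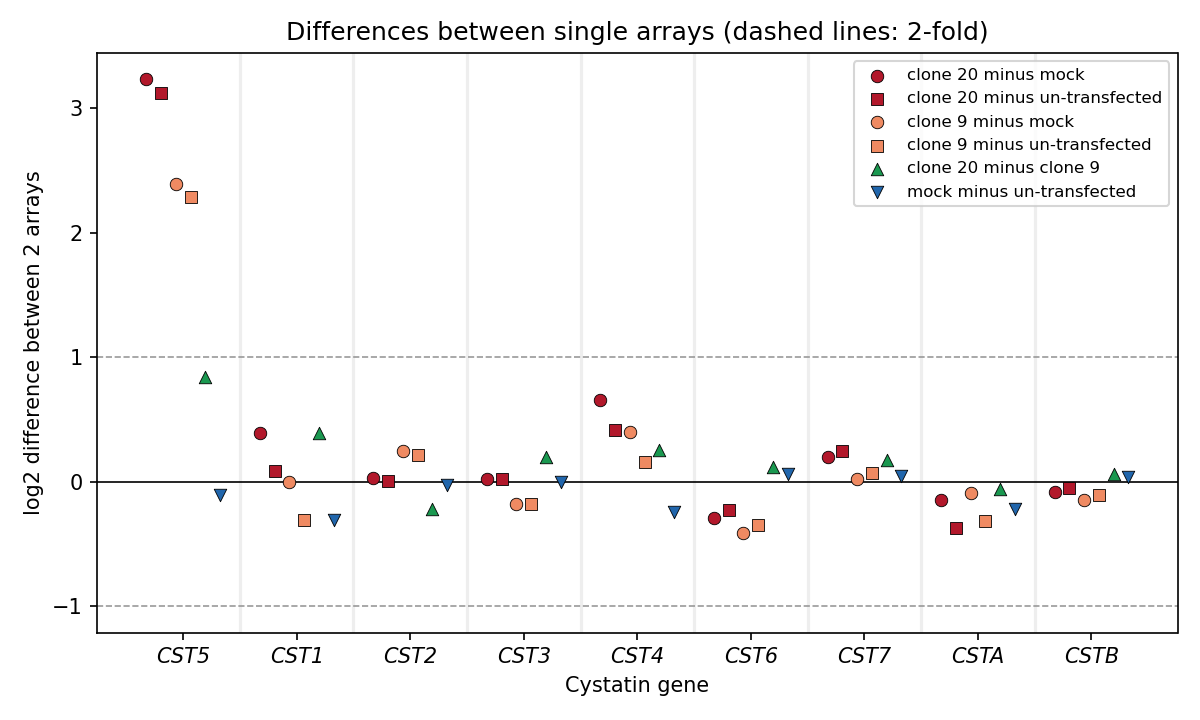
Log2 differences between single arrays for each cystatin gene. Circles and squares in red and orange are the 4 clone-to-control differences, the green triangle is clone 20 minus clone 9 and the blue triangle is mock minus un-transfected cells. Dashed lines mark 2-fold. The clone-to-control differences of CST5 lie between 2.28 and 3.23, and no other gene passes a dashed line.

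The other 8 cystatin genes differed little between the lines. Their log2 differences, clones minus controls, ran from -0.32 for CST6 to 0.41 for CST4, with a median of -0.02. The median was 0.04 over all 9 members and 0.03 over all 24916 genes. None of the 32 clone-to-control differences of these 8 genes reached 2-fold. The largest was 1.58-fold, for CST4 in clone 20 against mock. Differences of that size were rare in general. Depending on the pair, a clone exceeded a control 2-fold in 0.509% to 0.648% of genes past the filter. The share 2-fold lower was not counted, but 1.5-fold in either direction was met by only 5.6% to 6.89%. Staying under 2-fold therefore does not set these 8 genes apart, and CST1 and CSTA did not pass the filter. Of the 6 cystatin genes other than CST5 that were tested, none passed the adjusted threshold, with limma's adjusted p from 0.330 to 0.778. Over the 7 tested members including CST5, the unadjusted limma p was under 0.05 for 2 with a higher value in the clones, CST5 and CST4, and for 1 with a lower value, CST6. Among all tested genes 6.91% were higher and 6.62% lower at that threshold. Over the 3 scalings the unadjusted limma p was 0.0451 to 0.0673 for CST4, the highest after median centring, and 0.0122 to 0.0386 for CST6. Leaving out 1 array gave log2 differences of 0.28 to 0.54 for CST4 and -0.38 to -0.26 for CST6. The CST4 difference was 0.28 without clone 20 and 0.28 without mock. That of CST6 was -0.26 without clone 9. Such fits leave 1 array in a group, so their p-values are not given here.

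The salivary cystatins, encoded beside CST5, are secreted inhibitors that are close relatives of one another. Whether the authors' probe sets separate these related genes was not checked. CST4 (ENSG00000101441), which encodes cystatin S, gave 5.61 in clone 20 and 5.36 in clone 9, against 4.95 in mock and 5.20 in un-transfected cells. Both clones lay above both controls, by at least 0.16 on the log2 scale. The difference was 0.41 (SE 0.15, 95% interval 0.03 to 0.78), or 1.33-fold (limma, adjusted p = 0.344). The mock and un-transfected arrays were themselves 0.25 apart, with mock the lower.

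CST2 (ENSG00000170369), which encodes cystatin SA, gave 4.03 in clone 20 and 4.24 in clone 9, against 4.0 in mock and 4.03 in un-transfected cells. Clone 9 alone stood off the other lines, and clone 20 exceeded un-transfected cells by 0.0025. The log2 difference of CST2 was 0.12 with a 95% interval of -0.18 to 0.43 (limma, adjusted p = 0.658). It was 0.015 without clone 9, 0.23 without clone 20 and 0.018 to 0.035 over the 3 scalings. CST1 (ENSG00000170373), which encodes cystatin SN, was below the 40th percentile on all 4 arrays, so it was tested only with no filter on dim values (limma, adjusted p = 0.942). It gave 3.18 in clone 20 and 2.78 in clone 9, against 2.78 in mock and 3.09 in un-transfected cells. The groups overlapped, and clone 20 and un-transfected cells were the higher arrays.

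CST3 (ENSG00000101439) encodes cystatin C, which most tissues secrete and which is measured in blood as a marker of kidney function. It gave 8.05 in clone 20 and 7.85 in clone 9, against 8.03 in mock and 8.03 in un-transfected cells. Clone 9 was the low array, and the other 3 were within 0.022 of one another. The log2 difference of CST3 was -0.08 with a 95% interval of -0.37 to 0.22 (limma, adjusted p = 0.778), and a 2-fold difference lies outside the interval in either direction. The sign of the CST3 difference turned with quantile normalization (0.0057), cyclic loess (0.013) and without clone 9 (0.021).

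CST6 (ENSG00000175315) encodes cystatin E/M, a secreted inhibitor of cathepsins and of legumain that is abundant in skin. It gave 5.52 in clone 20 and 5.40 in clone 9, against 5.81 in mock and 5.74 in un-transfected cells. Both clones lay below both controls, by at least 0.23 on the log2 scale, while the lines within either group were no more than 0.12 apart. The log2 difference was -0.32 (SE 0.11, 95% interval -0.59 to -0.04; limma, adjusted p = 0.330).

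CST7 (ENSG00000077984) encodes cystatin F, which immune cells send to their lysosomes and which acts there on cathepsin C. It gave 5.19 in clone 20 and 5.01 in clone 9, against 4.99 in mock and 4.94 in un-transfected cells. Clone 9 exceeded mock by 0.02 on the log2 scale, so the groups were barely apart. The difference was 0.14 with a 95% interval of -0.16 to 0.43 (limma, adjusted p = 0.606). It was 0.22 without clone 9, 0.046 without clone 20 and 0.047 after median centring.

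As deposited, the stefins read lower in the clones by small amounts, although the CSTB difference turned to 0.011 with cyclic loess. CSTB (ENSG00000160213) encodes stefin B, a widely expressed inhibitor whose loss causes a progressive myoclonus epilepsy. It gave 9.35 in clone 20 and 9.29 in clone 9, against 9.44 in mock and 9.40 in un-transfected cells. The log2 difference of CSTB was -0.10 with a 95% interval of -0.36 to 0.16 (limma, adjusted p = 0.682). CSTA (ENSG00000121552) encodes stefin A, an inhibitor of the epidermis and other epithelia. It gave 3.09 in clone 20 and 3.15 in clone 9, against 3.24 in mock and 3.47 in un-transfected cells. Both clones were lower than both controls, but the value was above the 40th percentile in un-transfected cells alone, so CSTA was tested only with no filter on dim values (limma, log2 difference -0.23, adjusted p = 0.494).

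Groups that do not overlap were common in these arrays. In the tested genes, both clones lay above both controls in 23.3% and below both in 25.1%. Of the 8 members other than CST5, 3 had both clones above (CST2, CST4 and CST7), 3 had both below (CST6, CSTA and CSTB) and 2 overlapped. Of the 6 of these past the filter, to which the shares apply, 3 were above, 2 below and 1 overlapped. After median centring, quantile normalization or cyclic loess, CST5 and CST4 were the members with both clones above, and CST2 and CST7 overlapped. CST6 and CSTA stayed below under all 3 scalings. Of these scalings, CSTB was below under median centring alone, and CST3 as well.

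The small differences were also read against genes of similar value, since clones and controls differed with level across the table. All 24916 genes were put in 10 classes by their mean. In class 10, the highest, which holds CST3 and CSTB, the median difference of all genes was -0.09, beside -0.08 and -0.10 for these genes. In class 5, which holds CST2, the median was 0.12, the same to 2 decimals as the value of CST2. In class 7, which holds CST4, CST5, CST6 and CST7, it was 0.02. In class 4, which holds CST1 and CSTA, it was 0.11. The part of this shift in the members' values was not tested.

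**Figure D3:**
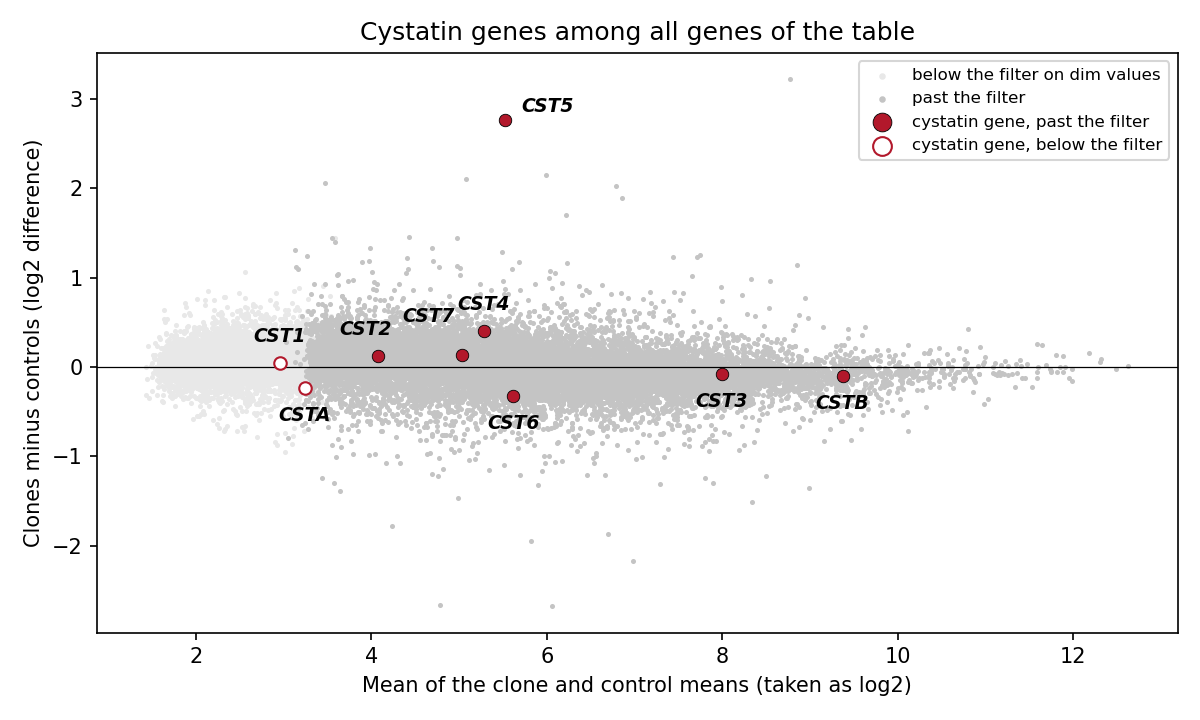
Log2 difference, clones minus controls, against the mean of both groups for every gene of the table. Filled red circles are the 7 cystatin genes past the filter, open circles the 2 below it, and grey points the other genes. CST5 lies at 2.76, with 1 gene higher, and the other cystatin genes lie between -0.32 and 0.41, inside the main body of genes.

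Genes whose pattern was most like that of CST5 were sought among the tested genes by the root mean square difference of gene-centred values over the 4 arrays. No other member spanned 1 log2 unit over the arrays, so none was searched. The nearest was ENSG00000081189, at 0.414, with 7.10 in clone 20 and 7.04 in clone 9, against 4.87 in mock and 4.97 in un-transfected cells. The second was ENSG00000115339, at 0.501, with 5.37 in clone 20 and 3.62 in clone 9, against 2.61 in mock and 2.27 in un-transfected cells. Both control values of this second gene lay below the 40th percentile, so it entered the search only through its high values in the clones, which favours a pattern like that of CST5. Neither identifier could be paired with a symbol in the sources used here, and 4 arrays do not show likeness beyond these lines. For the same reason other cystatin-like genes, the cathepsins and markers of cell types were not analysed here.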

How the data were processed

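RNA from each line (100 ng) went through two-cycle cDNA synthesis and in vitro transcription with biotin before hybridisation to Affymetrix GeneChip arrays, per the labels' protocols. The authors deposited 1 table with 1 value per Ensembl identifier and array, read here as log2 from its range of 1.03 to 12.7. The sources used here give neither the log base nor the array model, background correction, summarisation or normalization, and every fold rests on that reading. Array medians were 4.09 to 4.21. All 4 columns were mapped by sample identifier.

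Values were used as deposited. The 2 clones were compared with the 2 controls with lmFit and eBayes of limma 3.58.1, run in R 4.3.3 with 2 residual and 3.26 prior degrees of freedom, over the 15131 genes past the filter, with Benjamini-Hochberg adjustment over all of them. The code of the fit was run on simulated data with planted changes. Their spreads came from the fitted prior and were alike in both groups, so the run does not check the p-values of these lines. Intervals are limma's at 95%. The reference table pairs 0 Ensembl identifiers with symbols, so member names are those listed with their identifiers. The planned lists of other genes could therefore not be used. All 9 members are named, and for CST5 the 2 nearest patterns. Promoter sequences are from RefSeq, GRCh38.p14. Members and lists were chosen with earlier results of these data known. Figures were drawn with matplotlib 3.10.9.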

Additional observations from a re-analysis of the deposited data

Results flagged for a closer look

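In 2 cystatin genes the clones lay on opposite sides of both controls. The difference between the clones was not tested, since each is 1 array, and 15.8% of all 24916 genes showed this pattern. For CST3, clone 20 was 0.0209 above the mean of the controls on the log2 scale, and clone 9 stood at -0.178 from it, and clone 20 exceeded the nearer control by 0.020. For CST1, which was below the filter on dim values, clone 20 was 0.241 above that mean and clone 9 stood at -0.154 from it, but clone 9 minus mock was -0.0012.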

How the results depend on the processing

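The CST5 difference of 2.76 stayed positive under all 11 alternatives and was 2.67 to 2.76 over 3 scalings. In the alternatives with all 4 arrays it stayed outside the adjusted threshold, with limma's adjusted p from 0.1867 to 0.3655. Leaving out 1 array gave 2.34 (without clone 20) to 3.18 (without clone 9), where the lone array of a group is taken to have the spread of the other group. With all 4 arrays kept, the number of cystatin genes past the adjusted threshold was 0 in every setting (limma). It was also 0 at an adjusted p under 0.1 in the fit of the values as deposited. Each of these fits passed only 2 genes in all, so 0 members is near the share over all genes. CST3, at -0.08, turned to 0.0057 with quantile normalization, 0.013 with cyclic loess and 0.021 without clone 9 (leave-one-out range -0.18 to 0.021), and CSTB, at -0.10, turned to 0.011 with cyclic loess. The cause was not tested. CST1 was 0.04 as deposited and between -0.05 and -0.04 under the scalings, and CST1 and CSTA were tested only with no filter (limma, adjusted p = 0.942 and 0.494). Members with both clones above both controls numbered 4 as deposited and 2 after median centring, 2 after quantile normalization and 2 after cyclic loess, where 23.3%, 13.7%, 23.5% and 22.6% of tested genes were above. Members with both clones below numbered 3, 4, 2 and 2 in the same order, where 25.1%, 39.4%, 21.4% and 22.7% of tested genes were below. Each of these counts of members below includes CSTA, which did not pass the filter and to which the shares do not apply. With 1.5-fold in place of 2-fold, 2 members rather than 1 were apart between clone 20 and mock. Between clone 20 and clone 9 it was 1 rather than 0. Of the tested genes 6.89% and 5.84% were 1.5-fold apart in these pairs. In the other pairs of arrays the count of members did not change. A looser cut can only keep or raise a count. No paired analysis was possible because no replicate number in the labels links a clone to a control. With 4 arrays and no measure of background, small differences and dim genes such as CST1 and CSTA were not resolved.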
